A study of Mus musculus with 18 samples.

Results

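Interferon-stimulated genes are the genes a cell switches on when interferon binds its receptors. Here they are 37 mouse genes, chosen by name as genes induced by type I or type II interferon, out of 21831 genes in the deposited table. Of the 37, 36 passed the filter on low counts and were tested among 13409 genes. Mx1, which encodes an antiviral dynamin-like GTPase, did not pass: it had 83 counts over all libraries and at most 11 in any.

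Cells that detect viral or bacterial nucleic acid secrete interferons. Type I interferon acts through the receptor IFNAR and the kinases JAK1 and TYK2, which lead to ISGF3, a complex that holds STAT2 and IRF9 and binds the interferon-stimulated response element (ISRE). Type II interferon acts through the gamma-activated site (GAS). Macrophages also keep part of this programme on without infection, through low-level interferon signalling.

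RNA was sequenced from thioglycollate-elicited peritoneal macrophages of C57BL/6 mice aged 6 weeks. Mice received 1 mL of a 3% thioglycollate solution 3 days before collection, and the cells adhered for 4 h before 12 h with 20 µM PCN (pregnenolone 16α-carbonitrile, an agonist of the mouse nuclear receptor PXR) or with the vehicle DMSO. One genotype, FF, was PXRF/F with floxed PXR alleles, and the other, dMye, was PXRΔMye with PXR deleted in myeloid cells. The groups were FF_DMSO (n = 3 libraries), FF_PCN (n = 3), dMye_DMSO (n = 6) and dMye_PCN (n = 6). The labels name no Cre driver and do not tie libraries to animals, so p-values refer to variation among libraries, part of which could be technical, and replicate numbers serve as names alone.

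Library totals ran from 21993697 to 30228017 counts, and 3 counts, the floor for a gene at 0, equalled 0.0992 to 0.136 CPM (counts scaled to the library total). The deletion of PXR could not be checked, since its gene Nr1i2 had at most 3 counts in any library. Its counts summed to 2 in FF_DMSO, 1 in FF_PCN, 2 in dMye_DMSO and 3 in dMye_PCN, so its transcript was barely detected in FF cells too. Ddx3y, a gene of the Y chromosome, was above 1 CPM in all 6 libraries of FF cells but in 0 of the 12 from dMye cells, so genotype goes with the sex of the cells and these cannot be told apart. All 8 macrophage markers were detected in every group. Of the other cell types, B cell markers (8 listed) summed to 16.6 to 22.5 CPM in FF_DMSO, 8.33 to 11.7 in FF_PCN, 6.09 to 8.32 in dMye_DMSO and 5.56 to 9.63 in dMye_PCN. Ly6g, which defines neutrophils, was at 0 in all 4 groups. The neutrophil list of 6 markers still summed to 31.8 to 35.4 CPM in FF_DMSO, most of it from Mmp8 (30.1 ± 0.511 CPM).

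The promoters of these genes carry the sequences that interferon-activated factors bind. RefSeq promoter windows on GRCm38.p6 (250 bases before to 50 after a start) were held for 30 of the 37 genes. The ISRE letters GAAANNGAAA, on either strand, occurred in 15 of these 30 genes, against 3.99% of 27025 genes with a window. The GAS letters TTCNNNGAA, which read alike on both strands, occurred in 9 of 30, against 9.55% of all. There were 11 genes with ISRE letters alone, 5 with GAS letters alone, 4 with both and 10 with neither. All 4 guanylate-binding protein genes held ISRE letters, and none of the 3 antigen-processing genes did. The 150 bases before the start are shown for 6 genes that responded differently in the comparisons that follow. Gbp7 and Trim30a fell with PCN in FF cells, Oas1a was higher in dMye than in FF cells, Isg15 and Rsad2 passed none of the 5 contrasts over all libraries, and Irf1 held only GAS letters. Letters run 5′ to 3′ on the gene's own strand, and capitals mark ISRE or GAS letters, which overlap where a capital run is longer than one motif.
Gbp7, chr3:142530186-142530335, plus strand: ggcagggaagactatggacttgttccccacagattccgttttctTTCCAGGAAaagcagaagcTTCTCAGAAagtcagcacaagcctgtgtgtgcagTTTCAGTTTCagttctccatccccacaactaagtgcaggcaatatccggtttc
Trim30a, chr7:104465194-104465343, minus strand: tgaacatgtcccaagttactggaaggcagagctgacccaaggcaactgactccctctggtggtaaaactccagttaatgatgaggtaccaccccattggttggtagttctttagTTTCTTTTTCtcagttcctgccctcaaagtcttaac
Oas1a, chr5:120907526-120907675, minus strand: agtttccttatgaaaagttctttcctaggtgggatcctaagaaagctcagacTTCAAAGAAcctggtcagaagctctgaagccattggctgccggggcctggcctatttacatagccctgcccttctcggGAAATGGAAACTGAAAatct
Isg15, chr4:156200819-156200968, minus strand: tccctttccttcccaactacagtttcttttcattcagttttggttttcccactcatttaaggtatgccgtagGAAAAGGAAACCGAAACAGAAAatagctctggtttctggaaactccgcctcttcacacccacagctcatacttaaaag
Rsad2, chr12:26456453-26456602, minus strand: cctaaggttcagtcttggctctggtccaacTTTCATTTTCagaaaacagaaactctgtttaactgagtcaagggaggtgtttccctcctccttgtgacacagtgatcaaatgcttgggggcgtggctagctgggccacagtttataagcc
Irf1, chr11:53769864-53770013, plus strand: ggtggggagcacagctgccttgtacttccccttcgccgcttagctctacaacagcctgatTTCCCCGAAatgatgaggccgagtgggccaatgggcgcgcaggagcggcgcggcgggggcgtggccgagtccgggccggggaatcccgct
A match describes letters and not a bound site. In Isg15, 3 overlapping ISRE matches began 78, 72 and 66 bases before the start, and in Gbp7 the single ISRE match began 53 bases before it, with GAS matches 106 and 87 bases before it. Among genes that fell with PCN in FF cells, 4 of the 6 with a window held ISRE letters (Trim30a, Ifih1, Gbp2 and Gbp7), and Oasl2 and Irf9 held none. Of the other 24 tested genes with a window, 11 held them (45.8%).

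Levels in unexposed cells spanned a wide range. Compared per kb of exon in FF_DMSO, Bst2 (tetherin, which holds budding virions on the cell surface) was highest at 59.7 ± 0.608 CPM per kb (SD, n = 3). Oas1a, an oligoadenylate synthetase that activates RNase L, followed at 32.1 ± 0.437, then the immunoproteasome subunit Psmb8 at 18.3 ± 0.179. The peptide transporter Tap1 stood at 12.3 ± 0.579, Trim30a, a TRIM-family restraint on Toll-like receptor signalling, at 11.1 ± 0.389, and Usp18, which removes ISG15 and blocks IFNAR, at 10.9 ± 0.48. Trim30a and Usp18 differed by less than their SDs. At the low end stood Gbp5 at 0.108, Mx1 at 0.0428 and Ifi44 at 0.0318 CPM per kb. Ifit1, Ifit2, Ifit3 and Oas2 were each under 1 CPM per kb.

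**Figure D1:**
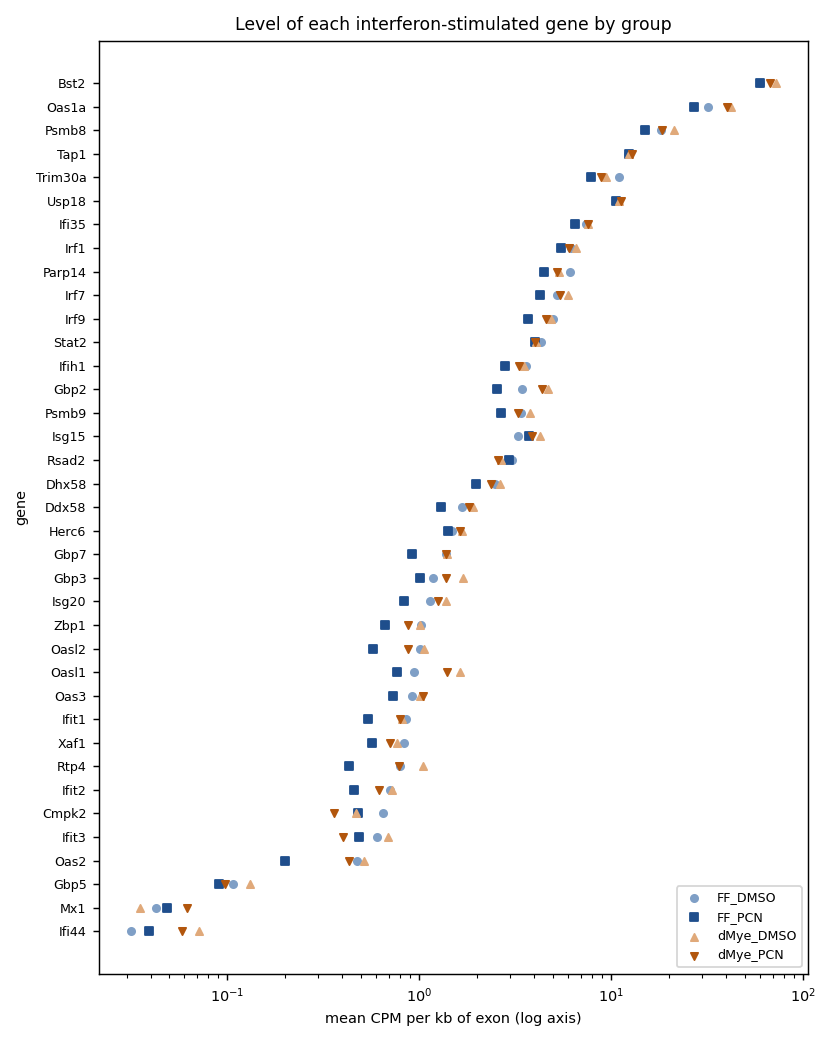
Mean level of each of the 37 genes in the 4 groups, in CPM per kb of exon on a log axis, with genes ordered by FF_DMSO. Points stand for group means, and FF_PCN lies lowest of the 4 groups for many genes in the middle of the order.

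Whether PCN changes these genes in FF cells was read from FF_PCN against FF_DMSO. PCN lowered 9 of the 36 tested genes and raised none, by edgeR's quasi-likelihood test with Benjamini-Hochberg adjustment over all genes (adjusted p under 0.05). Over all 13409 genes, 6.98% were lower and 6.82% higher by the same test. The 9 were Trim30a, Irf9, Oasl2, Gbp7, Parp14, Oas2, Ifih1, Gbp2 and Rtp4. The median log2 fold change over the 36 was -0.29, against 0.009 over all genes, and 32 of 36 were negative. After TMM scaling, all FF_PCN libraries lay below all FF_DMSO libraries for 15 genes and above them for 0, against 15.9% and 17.8% of all genes. In bulk RNA, fewer cells of a type and less RNA per cell cannot be told apart. Of the 8 macrophage markers, 6 also fell, and their sum was 7100 to 7600 CPM in FF_PCN against 10000 to 10700 in FF_DMSO, most of it from Lyz2 (7140 ± 324 to 4390 ± 317 CPM). Of the B cell markers 4 of 8 fell. Summed markers were also lower for plasmacytoid dendritic cells (30.9 to 34.9 against 39 to 43 CPM), conventional dendritic cells (4.92 to 7.31 against 7.78 to 9.42) and T and NK cells (4.31 to 4.64 against 4.73 to 6.33). The part of these shifts in the result was not tested.

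**Figure D2:**
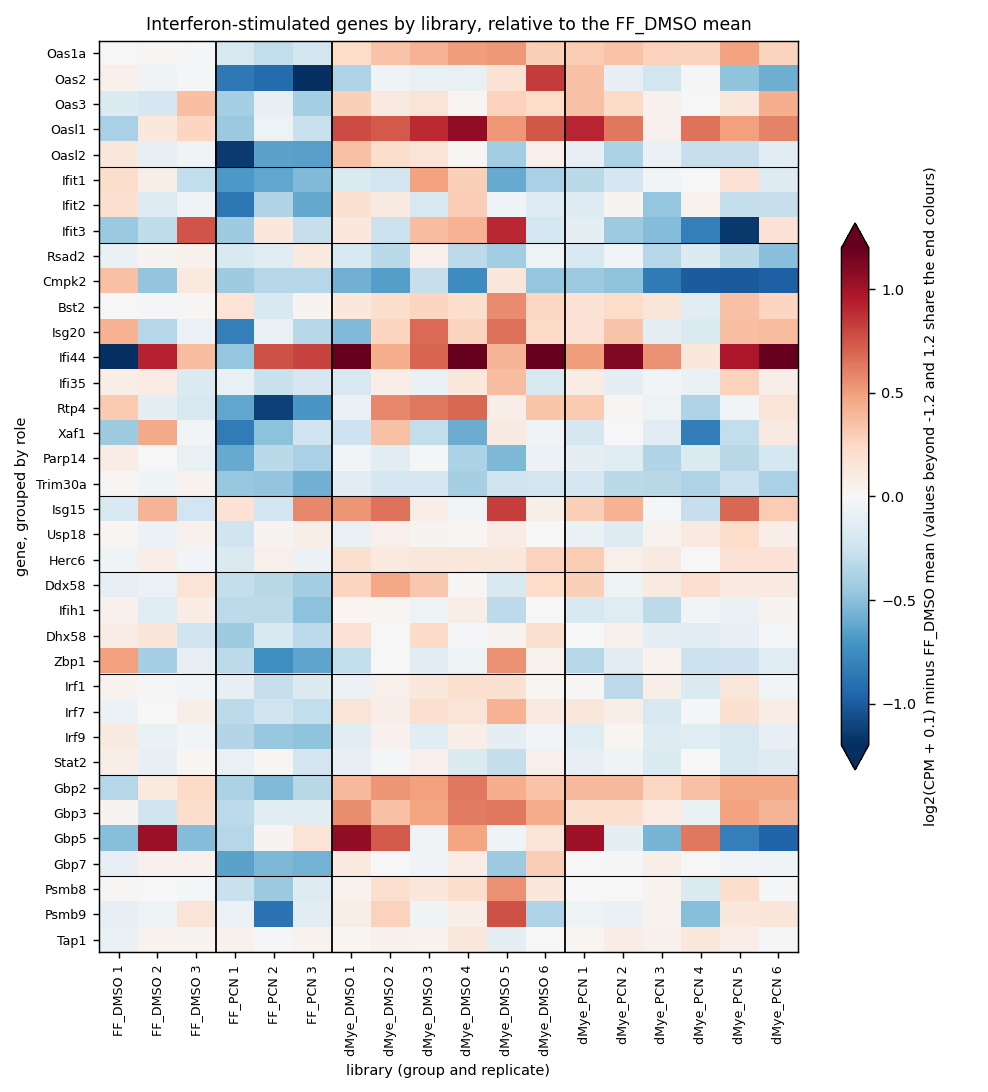
Level of each tested gene in each library, as log2(CPM + 0.1) minus the FF_DMSO mean of that gene. Rows are grouped by role and columns by group, and the 3 FF_PCN columns are blue (lower) over most rows while Tap1, Usp18 and Stat2 stay near white.

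Among the antiviral effectors, Trim30a gave the smallest p. It read 46, 43.9 and 47.1 CPM in FF_DMSO and 33.3, 32.9 and 30.6 in FF_PCN. All PCN libraries were below all vehicle libraries, and the log2 fold change was -0.48 (SE 0.07, adjusted p = 4.7e-05, edgeR). Parp14, an ADP-ribosyltransferase tied to interferon and interleukin responses, read 60.3, 56.7 and 53.5 CPM in FF_DMSO and 37.4, 45.4 and 43.3 in FF_PCN. The groups did not overlap, with a log2 fold change of -0.41 (SE 0.10, adjusted p = 0.0083, edgeR), but the call was lost without FF_DMSO 1 (adjusted p = 0.051) or FF_PCN 1 (0.062). Rtp4, a receptor transporter protein that limits viral RNA replication, read 2.1, 1.54 and 1.45 CPM against 1.05, 0.714 and 0.991. Its fall of -0.86 (SE 0.27, adjusted p = 0.039, edgeR) rested on few counts, and the call ended without any 1 FF library except FF_DMSO 3 (adjusted p up to 0.17), without the low-count filter, by limma-voom and with the compared groups alone. Bst2, the most abundant gene per kb, read 54.1, 53.3 and 54.4 CPM in FF_DMSO and 60.3, 47.5 and 55.3 in FF_PCN, an overlap with a log2 fold change of 0.03 (adjusted p = 0.90, edgeR). Rsad2 (viperin, which makes a chain-terminating nucleotide) also overlapped, with 12.6 to 13.8 against 11.7 to 14.5 CPM. Cmpk2, Isg20, Ifi35, Xaf1 and Ifi44 did not pass, with log2 values from -0.55 to 0.29.

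The oligoadenylate synthetase family senses double-stranded RNA. Of its 5 genes, 2 fell with PCN in FF cells. Oasl2, which encodes an OAS-like protein, read 7.07, 5.98 and 6.25 CPM in FF_DMSO and 2.84, 4.08 and 4.05 in FF_PCN, a log2 fold change of -0.79 (SE 0.17, adjusted p = 0.0025, edgeR). Oas2 read 2.22, 2.05 and 2.11 CPM against 1.13, 1.07 and 0.496, the steepest fold of the 36 at -1.21 (SE 0.33, adjusted p = 0.016, edgeR). Neither overlapped between groups, but Oas2 leaned on FF_PCN 3, without which its adjusted p was 0.088. Oas1a, with far more counts, read 60.9, 61.3 and 59.7 CPM against 53.1, 49.3 and 52. Its libraries did not overlap either, yet its log2 value of -0.21 (SE 0.08) missed the threshold at an adjusted p of 0.095 by edgeR, and passed with the compared groups alone (0.012) or without dMye_DMSO 5 (0.034). Oas3 and Oasl1 overlapped between groups, at log2 values of -0.30 and -0.27. The members of this family and its neighbours on chromosome 5 are similar in sequence, so how reads were divided among them is uncertain.

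The IFIT genes, whose proteins bind viral RNA ends, did not pass edgeR's test over all libraries. Ifit1 read 2.63, 2.38 and 1.82 CPM in FF_DMSO and 1.36, 1.43 and 1.53 in FF_PCN (log2 -0.64, adjusted p = 0.12, edgeR). Ifit2 read 3.19, 2.49 and 2.69 against 1.48, 2.14 and 1.78 (log2 -0.61, adjusted p = 0.058, edgeR), and passed by DESeq2 (0.041), under upper-quartile scaling (0.044), without FF_PCN 2 (0.044) and without dMye_DMSO 4 (0.049). For both, every PCN library was below every vehicle library. Ifit3 overlapped at 0.687 to 1.71 against 0.7 to 1.07 CPM, and shares sequence with the copy Ifit3b.

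Among the nucleic acid sensors, Ifih1 (MDA5, which detects long double-stranded RNA) fell. It read 30.7, 26.7 and 31.4 CPM in FF_DMSO and 23.8, 23.8 and 21 in FF_PCN, with no overlap and a log2 fold change of -0.35 (SE 0.10, adjusted p = 0.018, edgeR). Without FF_DMSO 1, FF_DMSO 3 or FF_PCN 3 its adjusted p ran from 0.067 to 0.085. Ddx58 (RIG-I) was also lower in all 3 PCN libraries, at 8.76 to 9.64 against 11 to 13.2 CPM, at an adjusted p of 0.093 by edgeR (0.043 without dMye_DMSO 5). Dhx58 (LGP2, their regulator) and Zbp1 (a sensor of Z-form nucleic acid) overlapped between groups at log2 values of -0.29 and -0.59, and Dhx58 passed without FF_DMSO 3 (adjusted p = 0.03, edgeR).

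Of the 4 transcription factors, Irf9, the DNA-binding subunit of ISGF3, fell. It read 29.2, 25.6 and 26.4 CPM in FF_DMSO and 21.1, 19.7 and 19.3 in FF_PCN, with no overlap and a log2 fold change of -0.41 (SE 0.08, adjusted p = 0.0013, edgeR). Its exons overlap Rnf31 on the same strand, so some reads may belong to that gene. Parp14, Rtp4 and Gbp7 also have same-strand exon overlaps, with Gm49730, Gm45338 and Gm43802. Stat2, the ISGF3 partner of Irf9, overlapped between groups at 27, 23.8 and 26 against 24.1, 25.8 and 21.9 CPM (log2 -0.07, adjusted p = 0.65, edgeR). Irf7, the amplifier of interferon-alpha genes, read 18.8 to 20.7 against 15.8 to 16.7 CPM (log2 -0.26, adjusted p = 0.10, edgeR), and passed with the compared groups alone (0.043) or without dMye_DMSO 5 (0.034). Irf1, an early interferon-gamma target, read 24.2 to 25.5 against 20.4 to 23.1 CPM (log2 -0.15, adjusted p = 0.38, edgeR). Both were separate between groups without passing the test over all libraries.

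Guanylate-binding proteins are large GTPases that attack the vacuoles of intracellular pathogens, and 2 of the 4 fell. Gbp7 read 7.27, 8.07 and 8.11 CPM in FF_DMSO and 4.97, 5.35 and 5.25 in FF_PCN, a log2 fold change of -0.57 (SE 0.13, adjusted p = 0.0043, edgeR). Gbp2 read 6.67, 9.21 and 10 CPM against 6.53, 5.87 and 6.73, so FF_DMSO 1 overlapped the PCN group. Its log2 fold change of -0.42 (SE 0.13, adjusted p = 0.036, edgeR) missed the threshold without FF_DMSO 2, FF_DMSO 3, FF_PCN 1 or FF_PCN 2 (adjusted p from 0.063 to 0.17), by limma-voom (0.066) and with the compared groups alone (0.072). Gbp3 and Gbp5 overlapped at log2 values of -0.18 and -0.25. All 4 lie within 1 cluster on chromosome 3 and are close relatives, which makes the split of reads among them uncertain.

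No gene of the ISG15 system or of antigen processing passed the test over all libraries. Isg15, the ubiquitin-like modifier, read 2.14, 3.26 and 2.07 CPM in FF_DMSO and 2.76, 2.06 and 3.68 in FF_PCN. Usp18 read 31, 29 and 31.5 against 25.8, 31.2 and 32, and Herc6, the mouse ISG15 ligase, 13.3 to 14.6 against 12.2 to 14.4. All 3 overlapped, and their log2 values ran from -0.04 to 0.20. Tap1 read 63.9, 69.7 and 69 CPM against 70, 66.2 and 69.5, with a log2 value of 0.04 and an SE of only 0.06. Psmb8 read 61.4 to 62.6 against 45.4 to 55.8 CPM and missed the threshold (log2 -0.26, adjusted p = 0.16, edgeR), but passed with the compared groups alone (0.012) or without dMye_DMSO 5 (0.021). Psmb9 overlapped between groups. Its exons lie antisense to Tap1 over a short stretch where the starts of both genes overlap, so without strand the reads there cannot be told apart.

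Whether the same changes appear in dMye cells was read from dMye_PCN against dMye_DMSO. No gene of the 36 passed edgeR's test, against 1.14% lower and 0.94% higher over all genes. DESeq2 and limma-voom also called 0. At an unadjusted p under 0.05, 5 genes were lower and 0 higher (Gbp3, Oasl2, Ifit3, Psmb8 and Rtp4), against 7.49% of all genes lower. The median log2 value was -0.12, against -0.01 over all genes, and 32 of 36 were negative, the same number as in FF. For 0 genes did the 6 PCN and 6 vehicle libraries separate in either direction, against 1.19% lower and 1.07% higher over all genes. Trim30a ran from 34.6 to 41.8 CPM (median 39.4) in dMye_DMSO and from 34.8 to 39.7 (median 36.4) in dMye_PCN. Irf9 ran from 24.8 to 28.5 (median 25.8) and from 23.7 to 27.4 (median 24.4). Gbp7 ran from 5.73 to 9.6 (median 8.04) and from 7.53 to 8.2 (median 7.76). Each pair of groups overlapped. Macrophage markers summed to 6630 to 8290 CPM in dMye_DMSO and 6110 to 6660 in dMye_PCN, with 1 of 8 lower by the test. Log2 values of the 9 genes that fell in FF cells ran from -0.41 (Rtp4) to -0.02 (Gbp7) in dMye cells. Because these genes were picked by their FF values, the selection by itself favours smaller values in dMye.

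**Figure D3:**
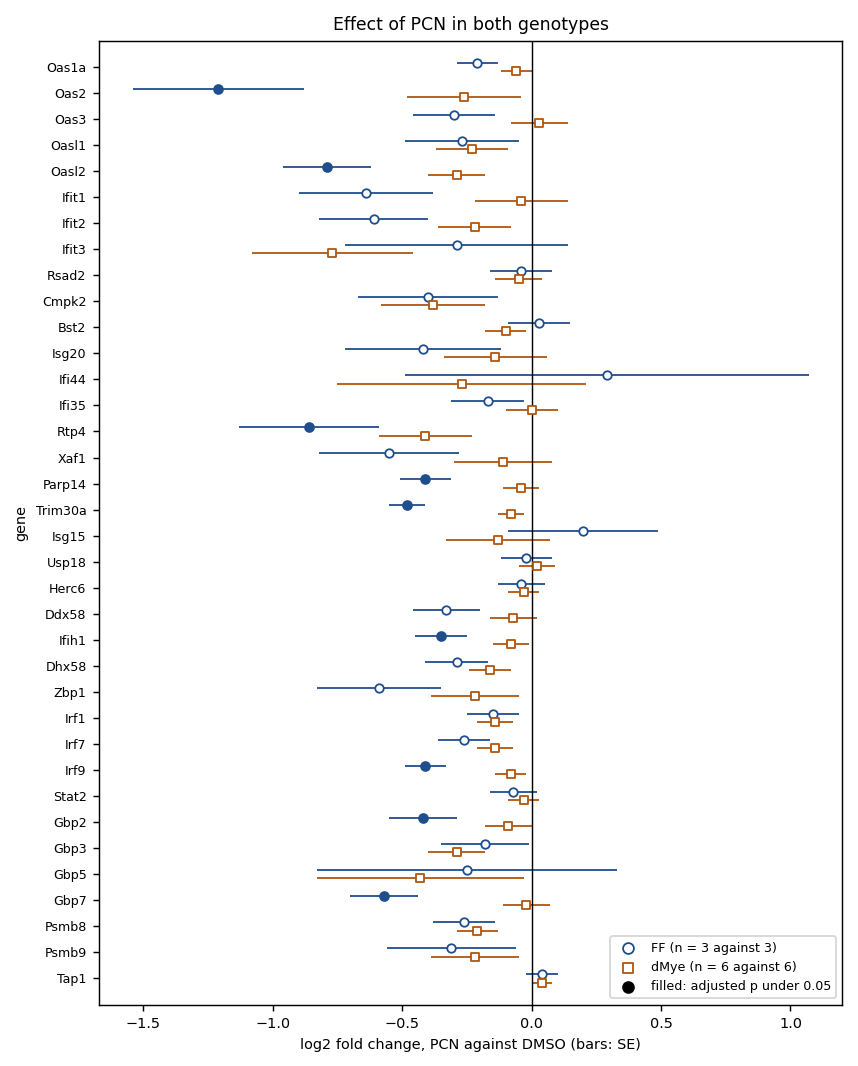
Log2 fold change of each tested gene with PCN against DMSO, with the SE as bars, in FF (circles) and dMye (squares), filled where the adjusted p was under 0.05. The 9 filled points are all FF points to the left of 0, and dMye squares lie closer to 0 for each of those 9 genes. Those genes were picked by their FF values, which by itself favours smaller values in dMye.

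The difference between the PCN effects was tested directly as an interaction, dMye minus FF. It passed for 1 gene, Trim30a, with a difference of 0.39 on the log2 scale (SE 0.08, adjusted p = 0.021, edgeR), against 0.746% higher and 0.671% lower over all genes. The call was lost without FF_DMSO 1, FF_DMSO 3 or FF_PCN 3 (adjusted p from 0.058 to 0.065), while the difference itself stayed between 0.37 and 0.43. For the other 8 genes that fell in FF cells, the difference between genotypes did not pass the threshold. Gbp7 came nearest at 0.55 (SE 0.16, adjusted p = 0.087, edgeR), then Irf9 at 0.33 (SE 0.10, adjusted p = 0.10). DESeq2 called both (adjusted p = 0.035 and 0.037), and edgeR called Gbp7 when dMye_DMSO 5 and 6 were left out together (adjusted p = 0.048). Without adjustment, 8 genes had a p under 0.05 and a positive difference, against 6.3% of all genes. Over the 36 the median difference was 0.14 and 28 were positive, compared with -0.012 over all genes. Libraries of both genotypes differed in cell markers too, with the neutrophil list at 31.8 to 35.4 CPM in FF_DMSO, 20.3 to 23.4 in FF_PCN, 14.9 to 17 in dMye_DMSO and 12.2 to 14.6 in dMye_PCN, and their part was not tested.

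**Figure D4:**
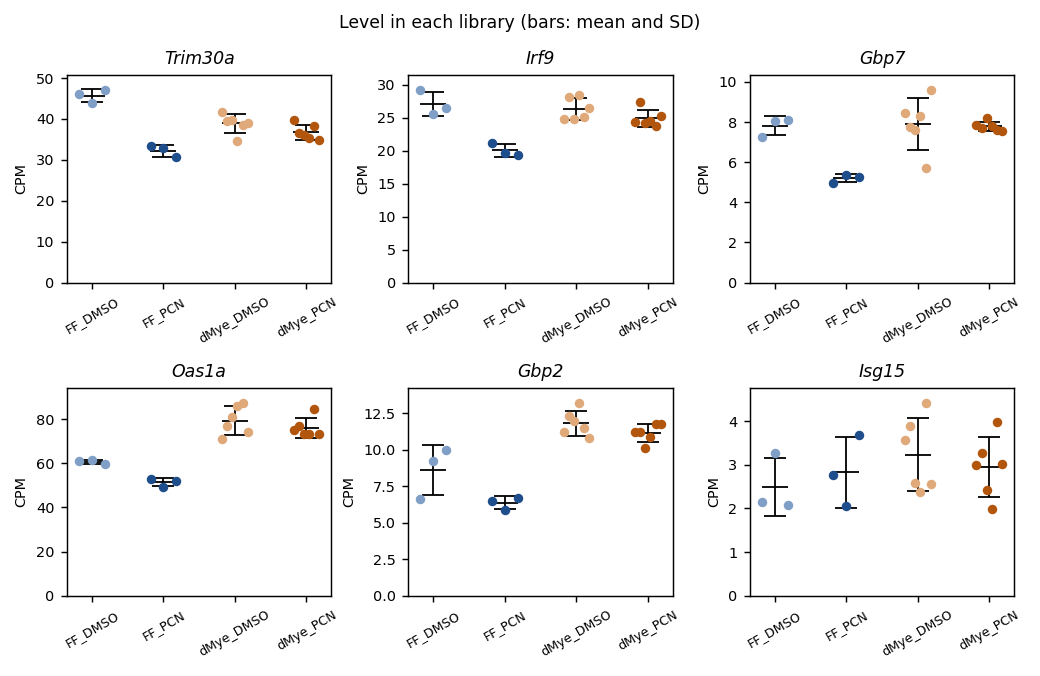
CPM of 6 genes in each library (points), with the group mean and SD as bars and axes starting at 0. Trim30a, Irf9 and Gbp7 are lowest in FF_PCN, Oas1a and Gbp2 are higher in both dMye groups, and Isg15 overlaps across all 4 groups.

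Genotypes were also compared within each treatment, using the same 4 groups, so these contrasts share libraries with those above. Under DMSO, 4 genes were higher in dMye (Oas1a, Oasl1, Gbp2 and Gbp3) and Trim30a was lower, against 13.9% higher and 7.85% lower over all genes. Libraries separated upward for 6 genes and downward for 1, against 15% and 9.74%. These counts are near the background shares. Of the markers, 2 of 8 for macrophages were higher and 2 lower, and 5 of 8 for B cells, 3 of 5 tested for plasmacytoid dendritic cells, 2 of 5 for conventional dendritic cells, 4 of 6 for T and NK cells and 2 of 4 for neutrophils were lower, with 0 higher. Their part in the result was not tested. Oas1a ran from 59.7 to 61.3 CPM in FF_DMSO and from 70.8 to 87.2 (median 78.9) in dMye_DMSO, a log2 difference of 0.36 (SE 0.07, adjusted p = 0.00068, edgeR). Oasl1, which represses translation of Irf7, read 1.82, 2.64 and 2.91 CPM against 3.5 to 5.16 (median 4.16), a difference of 0.77 (SE 0.18, adjusted p = 0.0039, edgeR). Gbp2 differed by 0.43 (adjusted p = 0.0068) and Gbp3 by 0.49 (adjusted p = 0.016), but Gbp2 lost the call without FF_DMSO 1 (0.090) and Gbp3 without FF_DMSO 2 (0.12). Trim30a was lower, with a difference of -0.26 (SE 0.06, adjusted p = 0.0025, edgeR), since its 43.9 to 47.1 CPM in FF_DMSO lay above all dMye_DMSO libraries.

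Under PCN, 11 genes were higher in dMye and 0 lower, against 16.2% higher and 11.4% lower over all genes. Libraries separated upward for 13 and downward for 1, against 16.1% and 11.5%. The median difference was 0.26, against 0.003 over all genes. Of the 8 macrophage markers, 6 were also higher (Adgre1, Csf1r, Itgam, Mertk, Fcgr1 and Cd14) and Lyz2 was lower. Lower too were 2 of 8 B cell, 2 of 5 plasmacytoid dendritic cell, 1 of 5 conventional dendritic cell, 2 of 6 T and NK cell and 1 of 4 neutrophil markers, with 1 T and NK cell marker higher. Their part in the result was not tested. All 5 oligoadenylate synthetase genes were among the 11, with differences of 0.51 (Oas1a), 1.04 (Oas2), 0.46 (Oas3), 0.81 (Oasl1) and 0.55 (Oasl2). In each of the 5 every dMye_PCN library exceeded every FF_PCN library. Oas1a ran from 73.1 to 84.7 CPM (median 74.2) against 49.3 to 53.1 (adjusted p = 1.3e-05, edgeR). Gbp2 ran from 10.1 to 11.8 CPM (median 11.2) against 5.87 to 6.73, a difference of 0.76 (SE 0.11, adjusted p = 2.7e-05), and Gbp7 differed by 0.53 (adjusted p = 0.0012). The rest were Rtp4 (0.83), Ddx58 (0.43), Irf7 (0.29) and Irf9 (0.26). Leaving out FF_PCN 1 or FF_PCN 3 ended the calls of Oas3 and Irf7, FF_PCN 1 that of Oasl2, FF_PCN 2 that of Rtp4 and FF_PCN 3 that of Oas2. Since FF_PCN serves in both, the falls in FF cells and these differences are not separate evidence.

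Upstream of these genes, interferons themselves were barely detected. Among 21 listed interferon genes, 0 passed the filter, and 7 had any count: Ifnz (30 counts over 18 libraries), Ifnk (19), Ifng (9), Ifna16 (6), Ifnab (3), Ifna7 (2) and Ifnb1 (2). The other 14 were at 0 in every library. Of the 9 receptor and kinase genes, 0 fell and Jak1 rose in FF cells (0.15, adjusted p = 0.049, edgeR). In dMye against FF, 3 of the 9 were lower under DMSO: Jak1 (-0.23), Jak2 (-0.19) and Tyk2 (-0.23). Jak1 was also lower under PCN (-0.28). Across 39 tested genes of the pathway, 6 rose and 5 fell with PCN in FF, and 1 rose and 3 fell in dMye. Over all genes the shares were 6.82% and 6.98% in FF, and 0.94% and 1.14% in dMye. Ptpn6 (SHP-1, a phosphatase that dampens JAK signals) fell by 0.77 in FF (adjusted p = 1.3e-06) and by 0.39 in dMye cells (adjusted p = 0.00051). Ikbke, a kinase that activates IRF factors, fell by 0.76 (adjusted p = 4e-06) and by 0.36 (adjusted p = 0.0015). Tlr7, the endosomal sensor of single-stranded RNA, fell by 0.60 (adjusted p = 6.4e-05) and by 0.26 (adjusted p = 0.027). All 3 fell in both genotypes, and none passed the interaction test (adjusted p = 0.055, 0.065 and 0.14). Irf5 fell by 0.36 in FF (adjusted p = 0.0007), and Ptpn2, which dephosphorylates JAK and STAT proteins, rose by 0.25 in FF and by 0.19 in dMye cells. Between genotypes, 1 pathway gene was higher and 7 lower in dMye under DMSO, and 5 higher and 8 lower under PCN. The shares over all genes were 13.9% and 7.85% under DMSO, and 16.2% and 11.4% under PCN. Ikbke was the higher one under DMSO (0.44) and was also higher under PCN (0.84, adjusted p = 2.4e-08, edgeR). Tlr3 was higher under PCN as well (1.09) but was not called under DMSO (0.28, adjusted p = 0.36, edgeR). It fell with PCN in FF cells (log2 -1, adjusted p = 0.011, edgeR). Irf8 was lower under both treatments (-0.17 and -0.25).

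Beside these stands a wider list of 67 other interferon-induced genes, 62 of them tested. Of the 62, 20 fell and 1 rose with PCN in FF, at a median of -0.26, while 3 fell and 1 rose in dMye, against 6.98% and 6.82% of all genes in FF and 1.14% and 0.94% in dMye. Ly6e, a membrane protein that affects viral entry, fell from 142 ± 1.75 to 75.6 ± 3.21 CPM (SD, n = 3) in FF, a log2 fold change of -0.88 (adjusted p = 2.8e-08, edgeR). In dMye cells it went from 127 ± 5.53 to 110 ± 7.87 CPM (n = 6), a change of -0.20 (adjusted p = 0.026, edgeR), and the interaction was 0.68 (SE 0.08, adjusted p = 0.00013). The interaction also passed for Trim12c (0.40, adjusted p = 0.021), the DNA-sensor relative Ifi203 (0.70, adjusted p = 0.033) and the dNTP hydrolase Samhd1 (0.28, adjusted p = 0.037). Ifi203 went from 11.7 to 6.3 CPM in FF_PCN and Samhd1 from 121 to 91.6. Under DMSO, Ly6e (-0.18), Trim12c (-0.28) and Samhd1 (-0.15) were lower in dMye than in FF, and Ifi203 was not called (0.13). Ifi203 lies almost wholly within Mndal on the same strand, so reads may have been divided between them. Mndal just missed the interaction threshold (0.59, adjusted p = 0.053, edgeR). Lgals3bp fell in both genotypes (-0.36 and -0.19), as did Parp12 (-0.43 and -0.23), and Cd274 (PD-L1) rose in both (0.42 and 0.25). In dMye against FF, 9 were higher and 8 lower under DMSO, and 24 higher and 2 lower under PCN. Over all genes, 13.9% were higher and 7.85% lower under DMSO, a share of rises close to that of the list, and 16.2% and 11.4% under PCN. Cxcl10 was higher under DMSO by 2.60 (SE 0.36) and Ifitm3 by 0.44, while Cd274 (-0.36) and Trim12c (-0.28) were lower. The Cxcl10 value rested on few counts, at 0.145 to 0.33 CPM in FF_DMSO against 1 to 1.82 in dMye_DMSO. Under PCN Ly6e was higher by 0.5, Ifitm3 by 0.52, Ifi203 by 0.83 and Cxcl10 by 1.74, and Cd274 differed by -0.53.

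Some of these genes are neighbours. Trim30a (GRCm38 chr7:104409025-104465193, minus strand) and Trim12c (chr7:104338754-104353362, minus strand) lie in 1 TRIM cluster, and both passed the interaction test with differences of 0.39 and 0.40. Members of that cluster share sequence, so reads may have been divided between them. The pair was singled out after its values were seen. Both were lower in dMye than in FF under DMSO (-0.26 and -0.28), and neither was called under PCN (0.14 and 0.12). Trim12a, Trim34a and Trim21, the other TRIM genes of the wider list, did not pass the interaction test. Their differences were 0.22, 0.22 and 0.18 (adjusted p = 0.66, 0.42 and 0.66, edgeR). On chromosome 16, Parp14 (chr16:35832874-35871544) lies near Dtx3l and Parp9, singled out after their values were seen, which fell in FF by 0.60 and 0.51. Dtx3l and Parp9 overlap head to head on opposite strands.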

How the data were processed

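Deposited values are the authors' expected counts for each gene symbol: estimated read numbers, not necessarily whole. The build was mm10, per the submitters' processing notes. No source used here gives the aligner, quantifier, gene models or strandedness. Expected counts were rounded, and genes were kept by filterByExpr. One edgeR 4.0.16 quasi-likelihood fit (R 4.3.3, robust, TMM scaling, no covariates) held all 18 libraries in 4 groups. Its 5 contrasts were adjusted by Benjamini-Hochberg over 13409 genes, with a threshold of 0.05. SE is the fold change over the square root of F. The biological coefficient of variation was 9.69%. CPM uses unscaled totals. The fit was tested on simulated data. Other settings tried were upper-quartile and RLE scaling, omitting the filter, a filter of 1 CPM in 6 libraries, DESeq2 1.42.0, limma-voom (limma 3.58.1), the compared groups alone and each library left out. Floors cover counting error only.

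The members and lists were chosen with earlier results of these data known. Named were called members, the highest member of each role, up to 4 called genes per contrast of each other list by smallest adjusted p, and interferon genes with any count. A few further genes were named beside these, among them Cxcl10 under PCN, Tyk2 and chromosomal neighbours. Coordinates come from GENCODE on GRCm38, matched by symbol, and promoter sequences from RefSeq. An allele that all 4 groups share, and some genes, are not reported here.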

Additional observations from a re-analysis of the deposited data

Results flagged for a closer look

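Single libraries stood apart from the other 5 of their group, by Dixon's ratio, for 6 genes out of 72 combinations of gene and dMye group looked at, and about 1 in 20 groups would do so by chance. In 4 of the 6 the library was dMye_DMSO 5. It read 80.1 CPM for Bst2 (next 64.5), 90.9 for Psmb8 (next 71.9), 26.3 for Irf7 (next 22.7) and 5.18 for Zbp1 (next 3.62). That library had the lowest total, 21993697 counts, and was the highest of its group at 15 of 36 genes. Oas2 read 3.88 CPM in dMye_DMSO 6 (next 2.41), and Oas1a read 84.7 CPM in dMye_PCN 5 (next 76.7). The PCN effect on Trim30a differed between genotypes by 0.39 on the log2 scale in the interaction test.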

How the results depend on the processing

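Alternatives were run for the 26 called values of the 36 tested genes, not for the pathway or wider lists. Over up to 26 settings none of these 26 reversed: 13 kept their call in each setting and 13 lost it in at least 1. In FF, Trim30a, Irf9, Oasl2 and Gbp7 kept theirs throughout. The count of FF calls ran from 6 (without FF_DMSO 1, FF_PCN 1 or FF_PCN 3) to 13 (without dMye_DMSO 5), and the dMye count was 0 in each setting. Calls in the interaction numbered 1, but 3 by DESeq2 and 2 with dMye_DMSO 5 and 6 left out together, and from 0 to 1 with single libraries left out; the cause was not tested. Over all genes the interaction gave 190 calls by edgeR, 426 by DESeq2 and 42 without FF_DMSO 1. Upper-quartile scaling moved the share of rises among calls from 49.4% to 38.2% in FF, from 45.2% to 31.2% in dMye, and for dMye against FF from 64% to 76% under DMSO and from 58.8% to 74.8% under PCN. No paired analysis was possible because the labels give no replicate numbers shared between groups. Genes under about 1 CPM, such as Ifi44 and Gbp5, had SEs of 0.78 and 0.58 in FF, larger than most differences seen.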
